A study of Danio rerio with 3 samples.

Results

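Caveolae are flask-shaped pits of the plasma membrane that are built by membrane-embedded caveolins and held in shape by a coat of cavins. In mammals, caveolin 1 is the essential caveolin of non-muscle cells, caveolin 2 partners it, and cavin 1 is required for caveolae to form. They are abundant in endothelium, mesothelium and adipose tissue, and are known for buffering membrane tension and for organising lipids and signalling receptors. The epicardium is the mesothelial cover of the heart, and in zebrafish cav1 is needed for the heart to regenerate.

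The caveola genes described here were chosen by symbol, with earlier results of these data known: the caveolins cav1 (ENSDARG00000103747) and cav2 (ENSDARG00000052000), and the cavin 1 pair cavin1a (ENSDARG00000076411) and cavin1b (ENSDARG00000059362). They are 4 of the 32520 genes counted. In the RefSeq assembly GRCz12tu, cav2 and cav1 are neighbours on chromosome 25, between tes and met, while cavin1a lies on chromosome 3 and cavin1b on chromosome 24. All cells came from ventricles of 6-month-old EK zebrafish that carried the tcf21:nucEGFP transgene, in which tcf21 regulatory sequence drives nuclear EGFP in epicardial cells. The cells were sorted live (propidium iodide-negative) for EGFP. The paper gives both sexes for its adult experiments in general and not for these libraries. Droplet 3′ RNA-seq gave 1 library each from uninjured clutchmates (Ctrl), from fish at 3 days after partial amputation of the ventricle (3 dpa) and from fish at 7 days (7 dpa). The number of hearts pooled per library is not given in the sources used here. With 1 library per condition no difference between libraries can be tested, and all intervals below are exact 95% intervals that cover counting error only.

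After filtering there were 5098 cells in the Ctrl library, 3905 in the 3 dpa library and 6624 in the 7 dpa library, with a median of 4312, 9623 and 5436 unique molecular identifiers (UMIs) per cell. A tcf21 UMI was found in 96.1% to 97.0% of the cells of each library, and pairs of libraries shared 6 to 12 cell barcodes. Cells were clustered with the caveola genes held out, and clusters were called by their markers: 2819 epithelial-like cells (the outer epicardial layer), 11225 mesenchymal-like cells in 4 clusters, 401 aEPC-like cells (carrying the marker genes of activated epicardial progenitor cells, 373 of them from 3 dpa), 552 mural-like, 403 immune-like, 169 cardiomyocyte-like and 58 endothelial-like cells. Because the groups differ in depth, a level is given throughout as UMIs of the gene per 10000 UMIs of the group, and levels are compared between groups of cells and not between genes.

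Cav1, cav2 and cavin1b were highest, or among the highest, in the epithelial-like cells, whereas cavin1a was close to undetected. Over all cells 49681 cav1 UMIs, 27096 cavin1b UMIs and 7793 cav2 UMIs were counted, against 33 cavin1a UMIs. At 3 dpa the epithelial-like cells were 30.4% of the cells and held 69.0% of the cav1 UMIs, 68.2% of the cav2 UMIs and 76.5% of the cavin1b UMIs. In the Ctrl library they were 5.45% of the cells and held 48.6%, 43.4% and 82.6% of the UMIs of these genes. These cells were deep, so their share of cells understates their share of all UMIs. Their median was 11085 UMIs in the Ctrl library, against 4312 over all cells, and 14790 at 3 dpa, against 9623. Of the UMIs of all genes they held 3432643 of 25681344 in the Ctrl library and 19614432 of 51259397 at 3 dpa.

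**Figure D1:**
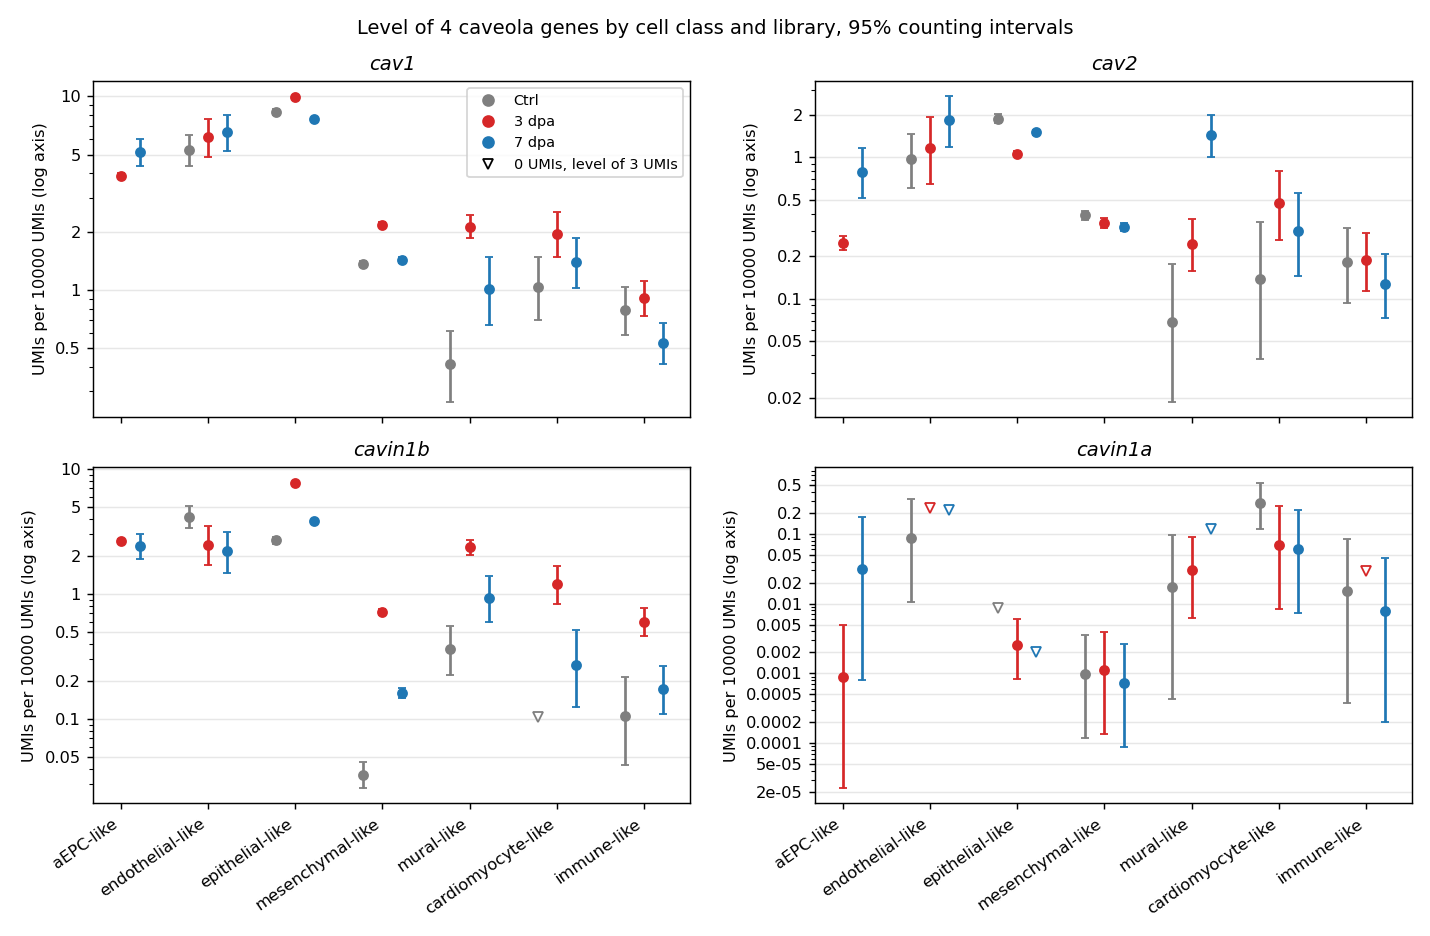
Level of each caveola gene, in UMIs per 10000 UMIs on a log axis, by cell class and library (grey Ctrl, red 3 dpa, blue 7 dpa), with exact 95% counting intervals. Open triangles stand for 0 UMIs and are drawn at the level that 3 UMIs would give, and the 5 aEPC-like cells of the Ctrl library are left out. For cav1 the epithelial-like and endothelial-like groups lie between 5.29 and 9.88, above the mesenchymal-like groups at 1.36 to 2.17, and cavin1a rests on 33 UMIs in all.

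The first comparison set epithelial-like against mesenchymal-like cells within each library. Cav1 reached 8.32 (8.02–8.63) UMIs per 10000 in epithelial-like cells of the Ctrl library, 9.88 (9.74–10.0) at 3 dpa and 7.62 (7.48–7.76) at 7 dpa. In mesenchymal-like cells it stood at 1.36 (1.31–1.42), 2.17 (2.11–2.24) and 1.43 (1.39–1.47) in the same libraries. The groups were thus far apart in each library, with epithelial over mesenchymal ratios of 6.10 (5.79–6.43), 4.55 (4.39–4.71) and 5.33 (5.14–5.52). A cav1 UMI was found in 96.4%, 92.8% and 95% of epithelial-like cells, and in 33.6%, 51.3% and 36.3% of the shallower mesenchymal-like cells.

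Cav2 was counted less often and showed the same order of classes. Its level in epithelial-like cells was 1.88 (1.74–2.03) in the Ctrl library, 1.06 (1.02–1.11) at 3 dpa and 1.5 (1.44–1.57) at 7 dpa, and in mesenchymal-like cells it was 0.389 (0.362–0.417), 0.345 (0.319–0.373) and 0.321 (0.30–0.343). The epithelial over mesenchymal ratios were 4.83 (4.35–5.37), 3.08 (2.82–3.38) and 4.68 (4.33–5.06).

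Cavin1b, the coat protein gene, had the steepest difference between the 2 epicardial classes. Epithelial-like cells held 2.70 (2.53–2.88) cavin1b UMIs per 10000 in the Ctrl library, 7.67 (7.54–7.79) at 3 dpa and 3.83 (3.73–3.93) at 7 dpa. Mesenchymal-like cells held 0.0357 (73 UMIs in 4330 cells), 0.721 and 0.162. The ratios were 75.7 (59.6–97.5), 10.6 (10.1–11.3) and 23.7 (21.5–26.1), which placed cavin1b at percentiles 99.7, 98.6 and 99.5 of all genes with enough UMIs. Cav1 lay at percentiles 98.5, 96.6 and 98.0, and cav2 at 98.0, 93.9 and 97.7.

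A ratio of at least 1.5 in favour of epithelial-like cells was thus met by 3 of 3 countable members in each library, against 25.5% of all genes with at least 50 UMIs in the Ctrl library, 34.5% at 3 dpa and 19% at 7 dpa. Cavin1a had too few UMIs for a ratio. Its 33 UMIs included 12 from cardiomyocyte-like cells, which were 169 of the 15627 cells, and 5 from epithelial-like cells, all of those in the 3 dpa library. Of the 12, 8 came from the 56 Ctrl cells, a level of 0.275 (0.119–0.542).

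Within the epithelial-like cells the members moved apart after injury. The 3 dpa over Ctrl ratio was 1.19 (1.14–1.23) for cav1, 0.566 (0.518–0.619) for cav2 and 2.84 (2.65–3.03) for cavin1b. The median gene was itself higher at 3 dpa, by 0.42 on the log2 scale, and against all genes cav1 lay at percentile 42.3, cav2 at 9.65 and cavin1b at 84.1. Past a ratio of 1.5 was 1 of 3 members upward (cavin1b), against 43.3% of all genes, and 1 of 3 downward (cav2), against 13.9%. The cav2 call ended with log normalization (−0.35 on the log2 scale) and at resolution 0.5 (−0.56), where the ratio stayed below 1 without passing 1/1.5. The share of genes called upward was so large that the member count alone does not set the caveola genes apart. With log normalization 490 of the 1188 epithelial-like cells of 3 dpa (41.2%) joined the aEPC-like class. The cav1 ratio was then close to 1. The summed level of 14 aEPC marker genes in epithelial-like cells was 4.91 in the Ctrl library and 45.6 at 3 dpa. In aEPC-like cells of 3 dpa it was 93.8. The part of this mix of cells in the ratios was not tested.

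At 7 dpa the epithelial-like levels lay closer to those of the Ctrl library. The 7 dpa over Ctrl ratio was 0.915 (0.878–0.954) for cav1, 0.80 (0.732–0.874) for cav2 and 1.42 (1.32–1.52) for cavin1b. None of the 3 passed 1.5 in either direction, against 19.2% of all genes upward and 13.1% downward. Relative to 3 dpa, cav1 was at 0.771 and cavin1b at 0.499 of the level, and cav2 at 1.41.

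Among the epithelial-like cells the typical cell showed the same order as the summed counts for cavin1b and cav2. The median cell had a cavin1b level of 2.07 in the Ctrl library, 6.30 at 3 dpa and 3.23 at 7 dpa, and a cav2 level of 1.66, 0.710 and 1.19. For cav1 the medians were 7.39, 7.56 and 6.50, so the 3 dpa and Ctrl libraries were nearly level in the typical cell. The cells of the 3 dpa library were more spread out in cav1, with the middle 50% between 3.35 and 12.7, against 4.89 and 10.8 in the Ctrl library.

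To set shares of cells side by side at equal depth, each cell was thinned to 1800 UMIs, which left out 2 of 278 epithelial-like cells in the Ctrl library, 17 of 1188 at 3 dpa and 16 of 1353 at 7 dpa. Cavin1b was then detected in 35.9% (30.2–41.8) of epithelial-like cells in the Ctrl library, 60.4% (57.5–63.2) at 3 dpa and 43.5% (40.9–46.2) at 7 dpa. The unthinned shares were 81.3%, 87.5% and 86.3%. The thinned cavin1b share in immune-like cells, taken here as a background class, was 1.23%, 4.46% and 1.95%, with a median of 6071 UMIs per immune-like cell over the libraries. Cav2 was detected in 25.7%, 17.5% and 25.9% of the thinned epithelial-like cells. Thinned cav1 shares of 72.1%, 68.1% and 67.4% did not follow the order of the levels, and no order of the libraries is read from them.

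**Figure D2:**
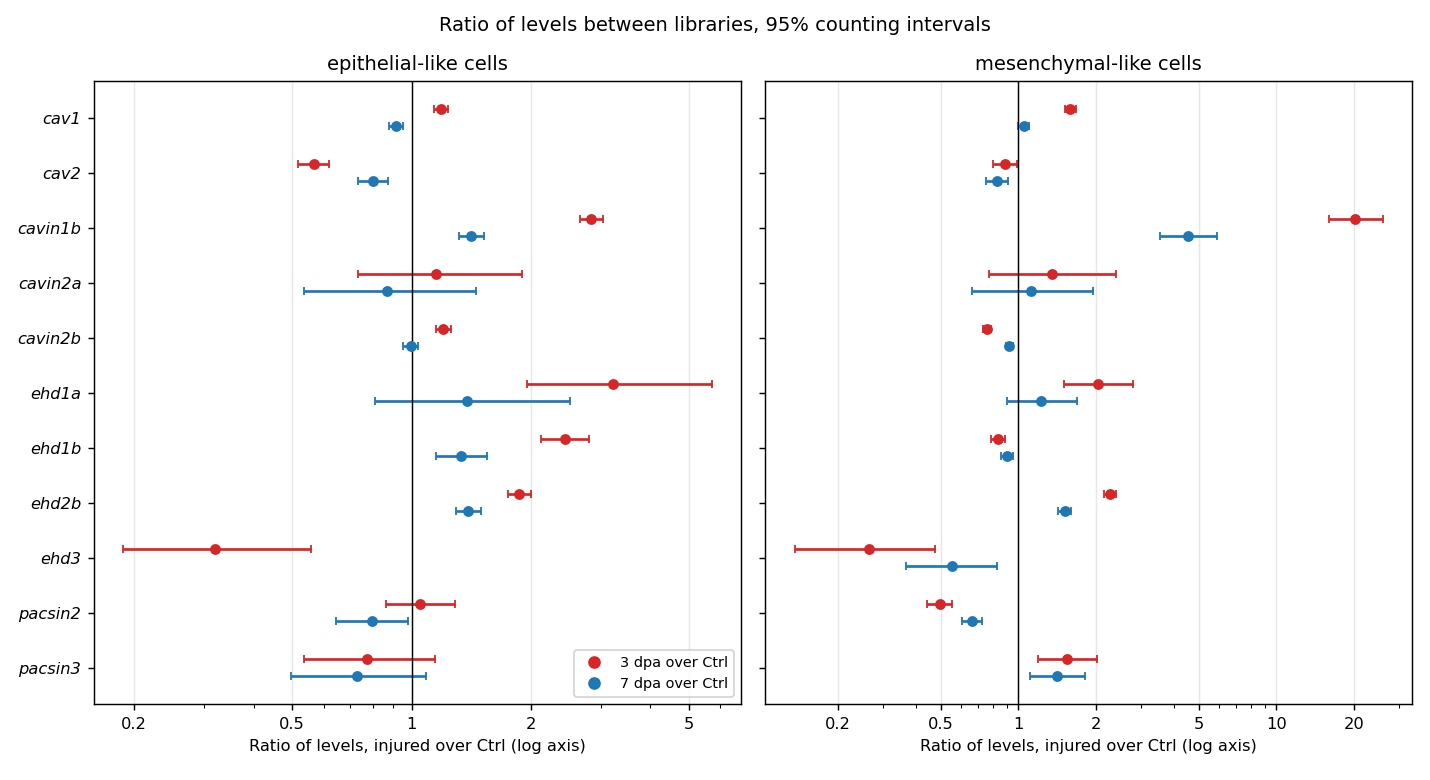
Ratio of levels on a log axis, 3 dpa over Ctrl (red) and 7 dpa over Ctrl (blue), in epithelial-like cells (left) and mesenchymal-like cells (right), with exact 95% counting intervals. Drawn are cav1, cav2, cavin1b and the caveola-related genes cavin2a, cavin2b, ehd1a, ehd1b, ehd2b, ehd3, pacsin2 and pacsin3, where they had at least 50 UMIs. Other caveola-related genes with enough UMIs, among them dnm2a and ehd2a, are not drawn. The vertical line marks equal levels. Cavin1b lies right of the line in both classes, at 2.84 and 1.42 in epithelial-like and 20.2 and 4.53 in mesenchymal-like cells, and cav2 lies left of it.

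In mesenchymal-like cells cavin1b had the greatest change of the members. The 3 dpa over Ctrl ratio was 20.2 (15.9–25.9) for cavin1b, 1.59 (1.52–1.67) for cav1 and 0.888 (0.798–0.987) for cav2, and 2 of 3 members were past 1.5 upward, against 29.6% of all genes. The 7 dpa over Ctrl ratio was 4.53 (3.53–5.88) for cavin1b, 1.05 (0.998–1.1) for cav1 and 0.826 (0.750–0.910) for cav2, with 1 of 3 past 1.5, against 16.9%. The median gene moved by 0.15 and 0.08 on the log2 scale in these comparisons.

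The mesenchymal-like change went with a higher summed level of epithelial marker RNA outside the epithelial-like cells. The summed level of 12 epithelial marker genes in mesenchymal-like cells was 4.85 in the Ctrl library, 21.7 at 3 dpa and 8.02 at 7 dpa, with 12 of 12 markers seen in each, and in immune-like cells it was 8.03, 16.8 and 12. Krt4 alone held 7431 of the 9912 marker UMIs in mesenchymal-like cells of the Ctrl library and 30526 of 39325 at 3 dpa. In immune-like cells of the Ctrl library tmsb1 held 322 of 531. Aldh1a2, which makes retinoic acid and marks the outer layer, had in mesenchymal-like cells 0.895%, 24.5% and 8.75% of its epithelial-like level. The markers did not move alike: podxl had 0.980%, 2.11% and 1.67% of its epithelial-like level there, and tjp2b 16.4%, 12.7% and 13.2%. Cavin1b stood at 1.32%, 9.40% and 4.22% of its own, and the median of the 12 markers at 1.67%, 8.17% and 4.0%. The 14 aEPC marker genes also rose in mesenchymal-like cells, with a summed level of 4.18, 26.0 and 9.39 in the Ctrl, 3 dpa and 7 dpa libraries. The part of either marker set in the cavin1b result was not tested.

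Immune-like cells give a second yardstick for cavin1b, on the assumption that they lack it. They are not a matched background for mesenchymal-like cells. The median of the 12 epithelial markers there was higher, at 6.91%, 15.0% and 8.09% of the epithelial-like level in the Ctrl, 3 dpa and 7 dpa libraries. Cavin1b there was 0.106 (7 UMIs) in the Ctrl library, 0.601 (0.460–0.772) at 3 dpa and 0.175 (22 UMIs) at 7 dpa, and the 3 dpa over Ctrl ratio was 5.68 (2.60–14.7), where 25.7% of all genes passed 1.5. These counts rested on few cells. In the Ctrl library 1 immune-like cell held 6 of the 7 UMIs, and the level without it was 0.0155, while at 3 dpa 1 cell held 21 of the 61 and the level without it was 0.408. Without those cells the 3 dpa over Ctrl ratio was 26.3 (4.46–1066). Mesenchymal over immune ratios of cavin1b were 0.337 (0.156–0.868), 1.20 (0.927–1.58) and 0.924 (0.602–1.49). Without the immune-like cell with the most cavin1b UMIs they were 2.31 (0.401–92.3), 1.77 (1.29–2.49) and 1.12 (0.698–1.90). Whether mesenchymal-like cells exceeded the immune-like background in cavin1b thus turned on single immune-like cells in the Ctrl and 3 dpa libraries, and at 7 dpa no difference was detectable either way. At 3 dpa 95.1% of the immune-like cavin1b UMIs sat in the 5% of cells with most of them, 7 of 135 cells, against 62.2% in mesenchymal-like cells, where 21.0% of cells had a UMI. After thinning, cavin1b was detected in 0.64%, 6.48% (5.43–7.68) and 1.43% of mesenchymal-like cells.

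Cav1 and cav2 in mesenchymal-like cells were above that background. The mesenchymal over immune ratios were 1.73 (1.32–2.33), 2.40 (1.95–2.98) and 2.68 (2.11–3.47) for cav1 and 2.14 (1.22–4.16), 1.84 (1.17–3.08) and 2.52 (1.54–4.43) for cav2. A ratio of at least 1.5 was met by 2 of 3 members in each library, against 35.6% of all genes in the Ctrl library, 29.5% at 3 dpa and 32.8% at 7 dpa. Without the immune-like cell with the most UMIs the ratios were 2.67, 3.33 and 3.49 for cav1 and 3.14, 2.28 and 3.32 for cav2. Cavin1b met the downward limit in the Ctrl library, as did 32.4% of all genes. Without 1 immune-like cell that call was lost, at a ratio of 2.31 (0.401–92.3) that rested on 1 immune-like UMI. Cavin1b met the downward limit in neither other library, where 35% and 30.7% of all genes did.

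**Figure D3:**
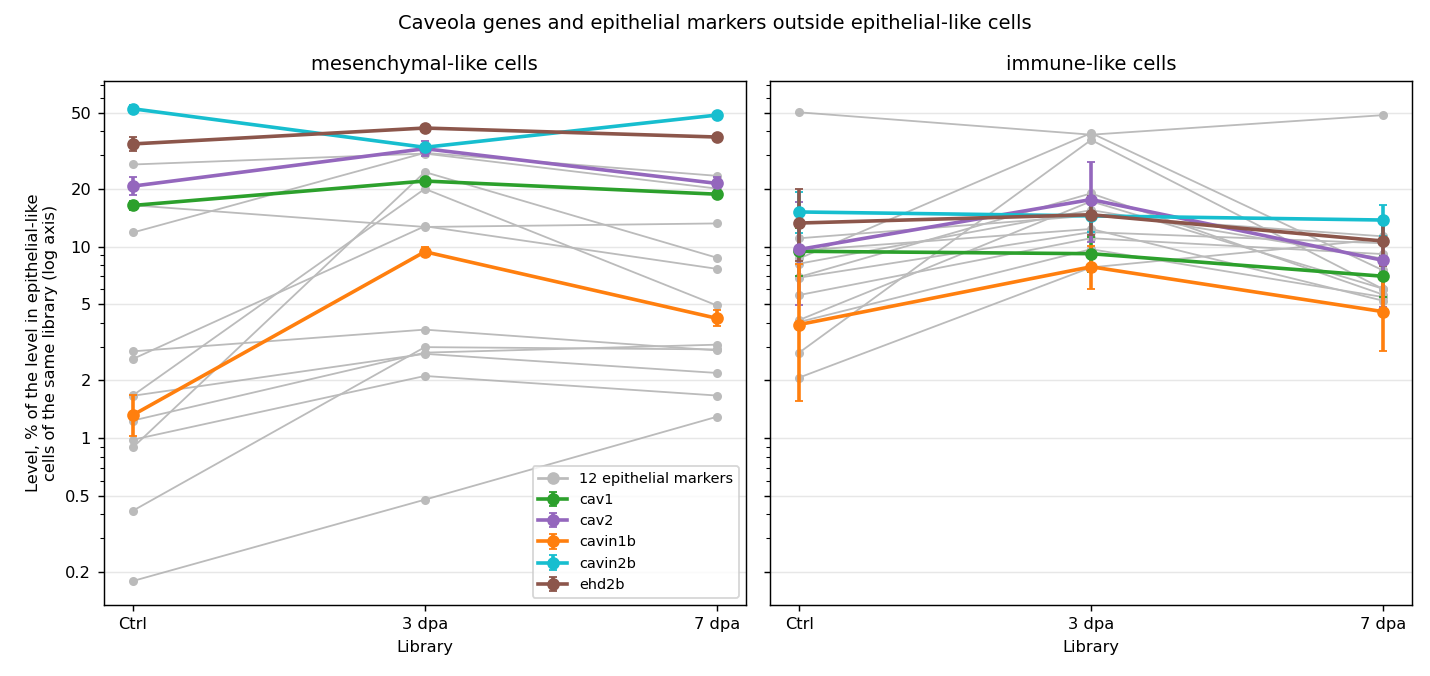
Level of caveola genes (coloured, with 95% counting intervals) and of 12 epithelial marker genes (grey) in mesenchymal-like cells (left) and immune-like cells (right), as a percentage of the level in epithelial-like cells of the same library, on a log axis. In mesenchymal-like cells cavin1b moves among the grey markers, at 1.32% in the Ctrl library, 9.40% at 3 dpa and 4.22% at 7 dpa, while cav1 lies between 16.4% and 22% and cavin2b between 33.0% and 52.4%.

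The 4 mesenchymal-like clusters differed in their caveola genes. In the cluster led by inhbb and fgl2b, cav1 was at 1.82 in the Ctrl library, 1.92 at 3 dpa and 1.65 at 7 dpa. The cluster led by ptger2b and slc16a3 had cav1 at 1.1, 2.58 and 1.44, and it also had the highest cavin1b at 3 dpa, 1.05, against 0.0349 in the Ctrl library. In the cluster led by tnfsf12 and dhrs3a, cav1 was at 1.31, 1.92 and 1.18 and cavin1b at 0.0339, 0.616 and 0.128. The small cluster led by rgs5b and admb had cav1 at 0.955, 0.831 and 1.24. This was near the immune-like level in the Ctrl and 3 dpa libraries and above it at 7 dpa, where immune-like cells had 0.533 (0.413–0.677). Cavin1b was thus higher at 3 dpa than in the Ctrl library in each of the 4 clusters, and cav1 mainly in 2 of them.

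The change of cav1 in mesenchymal-like cells depended on where the boundary of the class was drawn. With log normalization in place of regularized regression, 948 of the 2051 mesenchymal-like cells of 3 dpa (46.2%) stayed in the class, and 1009 (49.2%) fell into a cluster of 1699 cells that had no name, was led by lum, scxa, col8a1b and col12a1b and held 1188 cells of 3 dpa and 11 of the Ctrl library. The cells that stayed had cav1 at 1.1 and cavin1b at 0.113, and the cells that left had cav1 at 2.41 and cavin1b at 0.812. On the log2 scale the 3 dpa over Ctrl ratio of cav1 in mesenchymal-like cells then read −0.31 in place of 0.67, and that of cavin1b 1.85 in place of 4.34. As a mean over cells the cav1 ratio was 0.36, short of 1.5-fold.

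**Figure D4:**
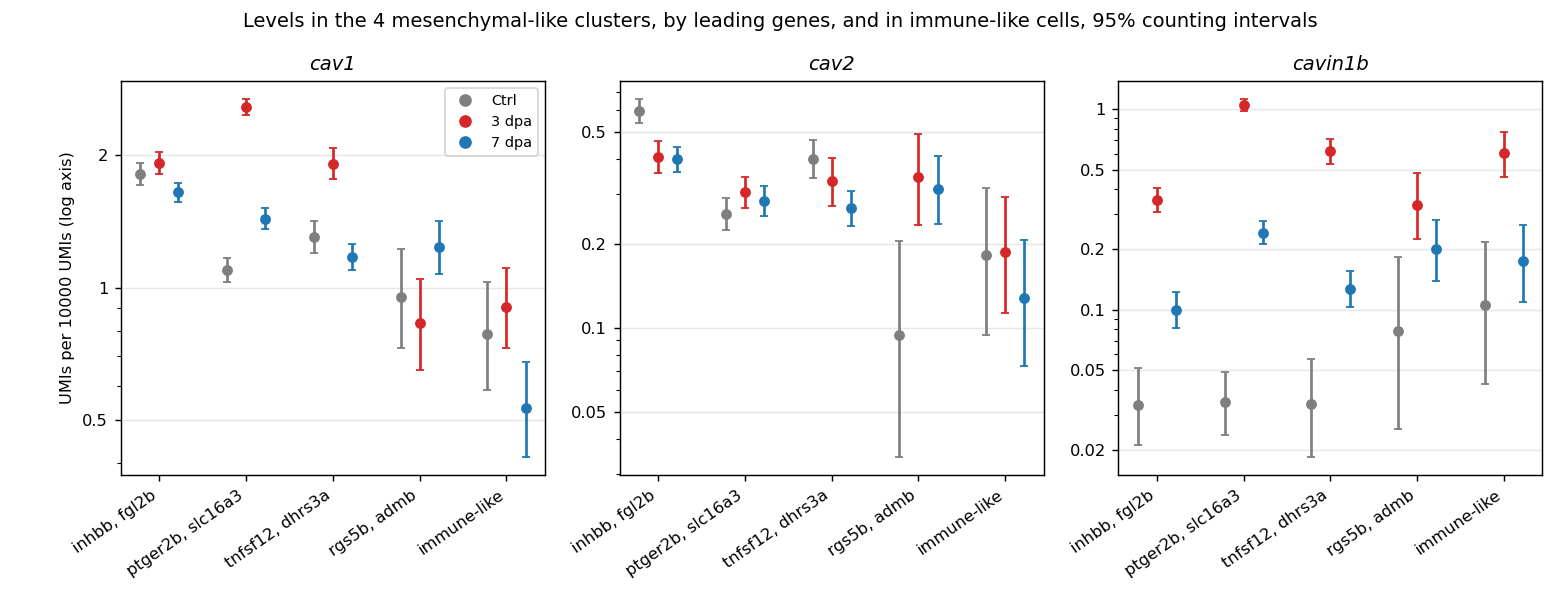
Level of cav1, cav2 and cavin1b, in UMIs per 10000 UMIs on log axes, in the 4 mesenchymal-like clusters named by their leading genes and in immune-like cells, by library, with 95% counting intervals. Cavin1b at 3 dpa reaches 1.05 in the ptger2b and slc16a3 cluster and 0.353 in the inhbb and fgl2b cluster, and the immune-like cells lie between them at 0.601.

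The aEPC-like cells of 3 dpa had lower levels than the epithelial-like cells of the same library. The leading genes of the aEPC-like cluster included top2a, a marker of dividing cells, with aurkb, cdca8 and rrm2, beside col11a1a and vcana. The part of dividing cells in these levels was not tested. Cav1 was at 3.90 (3.79–4.02) in aEPC-like cells and 9.88 in epithelial-like cells, a ratio of 0.395 (0.382–0.408). Cav2 was at 0.249 (0.220–0.280) and 1.06, a ratio of 0.234 (0.206–0.265), and cavin1b at 2.66 (2.56–2.75) and 7.67, a ratio of 0.346 (0.333–0.360). All 3 of 3 countable members were below 1/1.5, against 16.7% of all genes. The aEPC-like cells were deeper, with a median of 28849 UMIs against 14790, and per cell the ratios were smaller departures, at 0.711 for cav1, 0.421 for cav2 and 0.624 for cavin1b.

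Against mesenchymal-like cells of 3 dpa the aEPC-like cells were higher in cav1, at a ratio of 1.80 (1.72–1.88), and in cavin1b, at 3.69 (3.45–3.94), and lower in cav2, at 0.721 (0.623–0.832), a direction that reversed with log normalization (0.95 in place of −0.47 on the log2 scale). That made 2 of 3 past 1.5 upward, where 43.5% of all genes were, and 0 of 3 downward, where 18.2% were. The size of the cavin1b ratio depended on the clustering and moved by 3.68 on the log2 scale with log normalization. Cavin1b at 3 dpa was then at 5.62 in the aEPC-like cluster and at 0.102 to 0.155 in the mesenchymal-like clusters. The 23 aEPC-like cells of 7 dpa had 162 cav1 UMIs, a level of 5.15, and 76 cavin1b UMIs, of which 1 cell held 44. The cavin1b level of 2.41 read 1.11 without that cell. Under log normalization 490 of the 1188 epithelial-like cells of 3 dpa joined the aEPC-like class, with cav1 at 11.6 and cavin1b at 8.96, and the aEPC-like over epithelial-like log2 ratio was −0.19 for cav1 in place of −1.34 and −0.31 for cavin1b in place of −1.53.

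The endothelial-like cluster, 58 cells, was the other class with high caveola levels. Cav1 was at 5.29 (4.39–6.33) in the Ctrl library, 6.14 (4.86–7.66) at 3 dpa and 6.52 (5.23–8.02) at 7 dpa, with overlapping intervals. At 3 dpa 1 of the 13 cells held 42 of the 79 cav1 UMIs, and the level without it was 3.18. Cavin1b was at 4.15 (3.35–5.07), 2.49 (1.70–3.51) and 2.20 (1.48–3.14), and cav2 was at 0.970, 1.17 and 1.83, from 15 to 25 UMIs each. Without the cell with the most UMIs, cavin1b at 3 dpa was 1.29 and cav2 at 7 dpa was 1.18. Over the 3 libraries the endothelial-like over mesenchymal-like ratio was 3.63 (3.22–4.08) for cav1, 3.62 (2.76–4.65) for cav2 and 11.5 (9.70–13.5) for cavin1b, so 3 of 3 were past 1.5, against 33% of all genes.

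Set against epithelial-like cells over the 3 libraries together, the endothelial-like cells had cav1 at a ratio of 0.662 (0.587–0.743), cav2 at 0.962 (0.736–1.24) and cavin1b at 0.556 (0.472–0.650). Of the members, 2 of 3 lay below 1/1.5, where 37.1% of all genes did, and the pooled cav2 levels did not differ beyond counting error. The libraries were mixed unequally, since 30 of the 58 endothelial-like cells but 278 of the 2819 epithelial-like cells were from the Ctrl library. Within libraries the cavin1b ratio was 1.53 (1.23–1.90) in the Ctrl library, 0.325 (0.222–0.458) at 3 dpa and 0.574 (0.387–0.820) at 7 dpa, so the direction in the Ctrl library was opposite to the pooled one. For cav1 the ratios were 0.636 (0.525–0.763), 0.622 (0.492–0.775) and 0.856 (0.687–1.05), and for cav2 they were 0.516 (0.321–0.788), 1.1 (0.612–1.81) and 1.22 (0.787–1.80). The cluster also carried the markers of other cells. Its endothelial markers summed to 114, 78.0 and 82.2, all 11 of 11 seen, its mural markers to 42.3, 63.5 and 42.5, with 14 or 15 of 15 seen, and its cardiomyocyte markers to 76.2, 61.0 and 47.5, with 5 to 9 of 9 seen. Its epithelial markers summed to 22.9, 24.3 and 18.2, with 12, 6 and 9 of 12 seen. In epithelial-like cells the same markers summed to 66.0, 107 and 90.6. The part of these other markers in the caveola levels was not tested.

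In the remaining classes the levels were low in the Ctrl library. Mural-like cells had cav1 at 0.412 (24 UMIs) in the Ctrl library, 2.13 (208 UMIs) at 3 dpa and 1.01 (26 UMIs) at 7 dpa, and cavin1b at 0.361, 2.36 and 0.932. The 3 dpa over Ctrl ratio was 5.16 for cav1 and 6.54 for cavin1b, where 37.1% of all genes passed 1.5. The summed epithelial markers of the mural-like cells were at 2.03, 12.6 and 5.17, and their summed aEPC markers at 6.74, 50.4 and 7.23. The part of either was not tested. With log normalization the 63 mural-like cells of 3 dpa held 4 cav1 UMIs, a level of 0.291, against 0.374 in the Ctrl library. Cavin1b in that setting was at 1.24 (0.721–1.98) at 3 dpa, from 17 UMIs, against 0.357 (0.221–0.545) in the Ctrl library. Cardiomyocyte-like cells had cav1 at 1.03, 1.95 and 1.39, and no cavin1b UMI in 56 Ctrl cells, where 3 UMIs would be a level of 0.103, against 1.20 at 3 dpa and 0.273 at 7 dpa. The summed epithelial markers of the cardiomyocyte-like cells were at 4.05, 25.9 and 6.18 in these libraries, and their part was not tested. Cav3, the muscle caveolin of mammals, had 16 UMIs in the 169 cardiomyocyte-like cells.

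Ordered by cav1 level over the 3 libraries together, epithelial-like cells came first at 8.85 (8.75–8.94), then endothelial-like cells at 5.85 (5.2–6.57), aEPC-like cells at 3.93 (3.82–4.05) and mesenchymal-like cells at 1.61 (1.58–1.64). Cardiomyocyte-like cells at 1.46 (1.22–1.73) and mural-like cells at 1.42 (1.25–1.60) did not differ from each other beyond counting error, and the cardiomyocyte-like interval also took in the mesenchymal-like level. Immune-like cells came last at 0.720 (0.626–0.823), with 0.787, 0.907 and 0.533 in the Ctrl, 3 dpa and 7 dpa libraries. The pooled order did not hold in each library: 208 of the 258 mural-like cav1 UMIs were from 3 dpa, and in the Ctrl library mural-like cells, at 0.412, were below immune-like cells. Cav2 was at 0.137, 0.479 and 0.303 in cardiomyocyte-like cells and 0.182, 0.187 and 0.127 in immune-like cells in these libraries, from 4 to 19 UMIs a group. Mural-like cells had cav2 at 0.069, 0.245 and 1.44, and of the 37 UMIs at 7 dpa 1 cell held 15, without which the level was 0.877.

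Co-detection was counted in thinned cells, as the share with a UMI of both genes, beside the product of the 2 shares, which is what independent detection would give. In epithelial-like cells, cav1 and cavin1b were found together in 26.8% (21.7–32.5) in the Ctrl library, with a product of 25.9%, in 47.3% (44.4–50.2) at 3 dpa, with a product of 41.1%, and in 32.3% (29.8–34.9) at 7 dpa, with a product of 29.3%. The interval of the observed share lay above the product at 3 and 7 dpa and included it in the Ctrl library. That interval leaves out the error of the product, so it does not test association. The odds ratio (odds of cavin1b in cells with cav1 over those in cells without it) was 1.23, 3.26 and 1.76 in the Ctrl, 3 dpa and 7 dpa libraries. At 3 dpa the interval was also above the product at 900 UMIs (24.2%, product 20.8%) and at resolution 0.5 (56.3%, product 52.1%). With log normalization it included the product (46.1%, 41.9–50.3, product 42.2%), at an odds ratio of 2.10. At 7 dpa the interval included the product at resolution 0.5 (32.9%, 30.3–35.6, product 30.6%, odds ratio 1.55) and at 900 UMIs (14.8%, 12.9–16.8, product 13.6%, odds ratio 1.26). Cav1 and cav2 were found together in 18.8% (product 18.5%), 13.4% (11.9%) and 19.4% (17.4%), and cav2 and cavin1b in 11.6% (9.2%), 11.4% (10.6%) and 12.3% (11.3%). The odds ratios were 1.08, 1.66 and 1.65 for cav1 and cav2, and 1.69, 1.26 and 1.24 for cav2 and cavin1b. At 900 UMIs they were 0.929, 1.64 and 1.21 for cav1 and cav2, and 0.987, 1.48 and 0.881 for cav2 and cavin1b. With log normalization those of cav2 and cavin1b were 1.66, 0.918 and 1.22. No direction is thus read for cav2 and cavin1b, or for cav1 and cav2 in the Ctrl library.

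All 3 genes were seen together in 7.97% of thinned epithelial-like cells in the Ctrl library, 9.65% at 3 dpa and 9.80% at 7 dpa, and none of them in 15.6%, 16.4% and 17.4%. In mesenchymal-like cells none of the 3 was seen in 77.1%, 69.9% and 77.7%, and in aEPC-like cells of 3 dpa in 35%. Mesenchymal-like cells with both caveolins were rare but more frequent than the product, at 2.21% (product 1.16%), 1.87% (1.28%) and 1.65% (0.88%). In aEPC-like cells of 3 dpa cav1 and cavin1b were together in 18.1% (14.3–22.4), with a product of 16.6%. At 900 UMIs the observed share was below the product, at 3.23% (1.68–5.57) against 5.09%, so no direction is read for this pair there. Cells of a class still differ in depth before thinning and in cluster position, and a shared excess is a description of these cells.

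**Figure D5:**
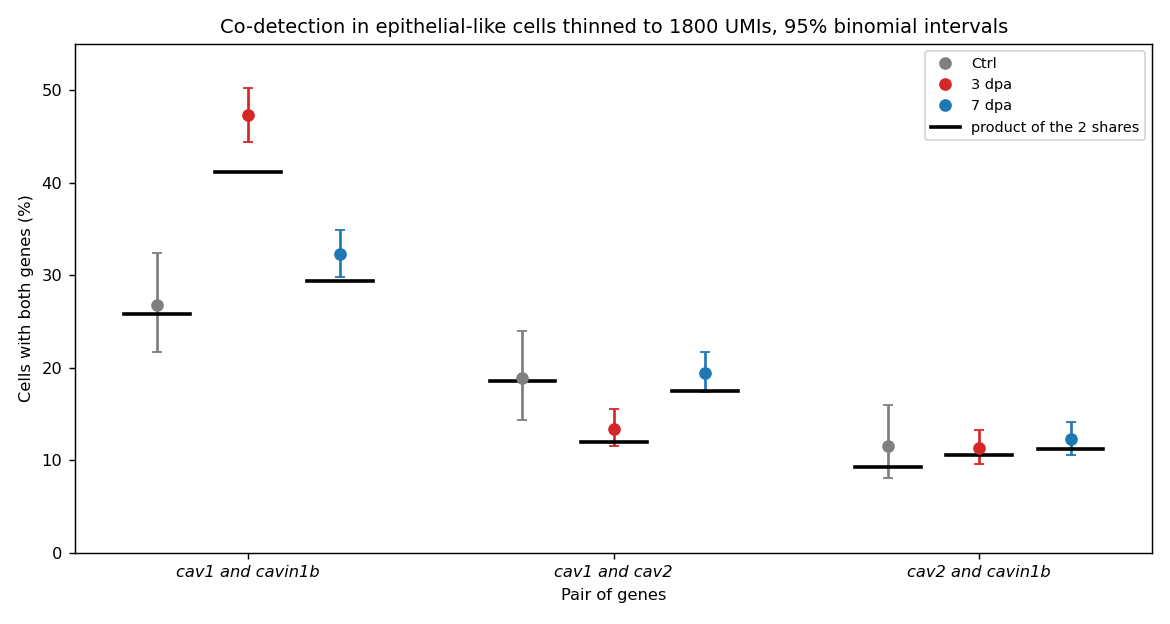
Share of epithelial-like cells with a UMI of both genes after thinning to 1800 UMIs, by pair of genes and library (grey Ctrl, red 3 dpa, blue 7 dpa), with exact 95% binomial intervals; black bars give the product of the 2 single shares. The pair cav1 and cavin1b at 3 dpa stands above its bar, at 47.3% against 41.1%, and the pairs with cav2 lie near theirs.

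Other genes of caveolae were read from a list of 19 further genes. The list held cav3, cavin2a, cavin2b, cavin4a and cavin4b, the EHD ATPases and the membrane-bending pacsins. It also held the dynamin 2 pair that severs vesicles and the plvap pair that forms the diaphragms of endothelial caveolae. Of the EHD ATPases, EHD2 sits at the caveola neck in mammals. Epithelial-like over mesenchymal-like, 4 of 9 countable genes were past 1.5 upward and 4 downward in the Ctrl library, 7 and 1 of 11 at 3 dpa, and 4 and 2 of 11 at 7 dpa. Of all genes, 25.5%, 34.5% and 19% were past 1.5 upward and 25.9%, 13.9% and 19.7% downward. The list's median log2 ratios were 0.49, 1.07 and −0.14, beside 0.08, 0.32 and 0.08 over all genes. At 3 dpa the list as a whole thus leaned toward epithelial-like cells, as cav1, cav2 and cavin1b did in each library. In the Ctrl library as many list genes passed upward as downward, and at 7 dpa the list's median lay below that of all genes.

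Of these, cavin2b and ehd2b had many UMIs and were higher in epithelial-like cells in each library, and cavin2a, with few UMIs, had epithelial over mesenchymal ratios of 4.47 at 3 dpa and 4.04 at 7 dpa. Cavin2b, a second cavin, was at 6.69 in epithelial-like cells of the Ctrl library, 8.04 at 3 dpa and 6.65 at 7 dpa, against 3.50, 2.65 and 3.23 in mesenchymal-like cells. Ehd2b, whose mammalian counterpart EHD2 stabilises caveolae, was at 2.62, 4.91 and 3.65 in epithelial-like cells, against 0.901, 2.04 and 1.36 in mesenchymal-like cells. The epithelial over mesenchymal ratios were 1.91, 3.03 and 2.06 for cavin2b and 2.91, 2.41 and 2.68 for ehd2b.

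Of 9 countable list genes in epithelial-like cells, 4 were past 1.5 upward at 3 dpa over Ctrl, ehd1a (3.23), ehd1b (2.43), ehd2b (1.87) and dnm2a (2.15), and ehd3 (0.320) was downward, beside 43.3% of all genes upward and 13.9% downward. In mesenchymal-like cells ehd1a (2.04), ehd2b (2.27) and pacsin3 (1.55) were past 1.5 upward and ehd2a (0.376), ehd3 (0.263) and pacsin2 (0.496) downward, of 11 genes, beside 29.6% of all genes upward and 18.4% downward. At 7 dpa over Ctrl, ehd2b (1.51) was the one gene past 1.5 upward in mesenchymal-like cells, ehd3 (0.555) and pacsin2 (0.663) were downward, beside 16.9% of all genes upward and 10% downward, and no list gene of 7 passed in epithelial-like cells. In the aEPC-like cells of 3 dpa, 3 of 10 list genes were below 1/1.5 against epithelial-like cells, cavin2a, cavin2b and ehd3, and 0 of 10 were above 1.5, beside 16.7% of all genes below and 26.7% above.

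In endothelial-like cells 11 of 14 countable list genes were past 1.5 above mesenchymal-like cells, and 1, ehd2a, was below 1/1.5, beside 33% of all genes above and 30.8% below. They included ehd4 at 39.8-fold, cavin2a at 20.3-fold, cavin2b at 2.83-fold and ehd2b at 2.53-fold. Plvapa and plvapb, the diaphragm genes, had 74 and 148 UMIs in the 58 endothelial-like cells, a level of 1.5 and 3.01, against 0 and 7 UMIs in the 2819 epithelial-like cells. The epithelial-like cells carried caveolin and cavin transcripts with next to no diaphragm transcripts.

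The pattern of each member over 15 groups (class by library, at least 50 cells each) was set beside that of 8600 genes with at least 500 UMIs, by Pearson's correlation of log2 levels, as a description over groups that share libraries and depth. No endothelial-like group reached 50 cells, so that class, also high in cav1, was not among the 15 groups. The genes most like cav1 were krt8, a keratin of simple epithelia, gpt2l and myh10, a non-muscle myosin, at 0.94 each. Those most like cav2 were btc, a growth factor of the EGF family, at 0.88, and brd3b and si:dkey-71b5.6 at 0.87. Those most like cavin1b were aldh1a2 at 0.95, si:dkey-28b4.7 at 0.92 and cep131 at 0.89.

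Among themselves the members were less alike, with 0.76 for cav1 and cav2, 0.75 for cav1 and cavin1b and 0.61 for cav2 and cavin1b. Of the 4 list genes set beside them, cavin2b was at 0.90 with cav1, ehd2b at 0.84, ehd1b at 0.57 and pacsin2 at −0.72. When ranks were used in place of levels, the 3 nearest genes of cav1 and of cav2 were all replaced, and 2 of 3 stayed for cavin1b.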

How the data were processed

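The authors aligned and counted reads with Cell Ranger 3.0.2 on GRCz10 and deposited UMI counts that had not been normalized, by gene for every droplet kept by that program; 5284, 4390 and 7002 droplets and 26092042, 52513639 and 45679493 UMIs were in the Ctrl, 3 dpa and 7 dpa matrices. Droplets with more than 316 genes and at most 5% mitochondrial UMIs were kept. Genes in at least 5 cells and 0.2% of each library entered Seurat 5.3.0 with sctransform 0.4.2 (R 4.3.3; library as batch term, 3000 variable genes less the caveola list, 20 components, resolution 0.3). Clusters were named "-like" from 110 markers, some of which the study chose on these samples; a class needed 50% of its list raised 1.5-fold. A tie (endothelial and mural, in the 58-cell cluster) went to the class with more markers among the 10 leading genes, a rule set after the clusters were seen. The authors' cell annotation was not used here, so class sizes may differ from the study's. Scrublet, by its own threshold, marked 2 cells and had not worked; doublets stayed in, and removal of the top 216, 137 and 371 scores was an alternative.

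Levels are summed UMIs per 10000 with Poisson intervals, ratios have exact conditional intervals and shares Clopper-Pearson intervals (Python, scipy 1.17.1, scanpy 1.11.5), each at 95%, covering counting error alone. A ratio needed 50 UMIs over both groups; the floor was 3 UMIs. On counts simulated as Poisson for 3 dpa over Ctrl in epithelial-like cells (10372 genes), 95.8% of intervals held the true ratio. The intervals assume Poisson counts too, so this checks the interval formula and not the spread of the real counts. The members, the lists and the rule for named genes (the 4 members, list genes past 1.5, and the 3 genes most like each member) were chosen with earlier results of these data known. Cavin3 was not analysed here. Levels and ratios without the cell holding most UMIs of a gene, levels by cluster under log normalization, and co-detection with the 10% mitochondrial limit, log normalization or no gene held out were added after seeing the data, as were endothelial-like over epithelial-like ratios within libraries.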

Additional observations from a re-analysis of the deposited data

Results flagged for a closer look

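Differences between the epithelial-like and mesenchymal-like cells in the direction of change were found for 2 genes of the wider caveola list, and none of them was tested, since each condition has 1 library. The 3 dpa over Ctrl ratio of cavin2b was 1.20 (1.15–1.26) in epithelial-like cells, against 0.757 (0.730–0.785) in mesenchymal-like cells. That of ehd1b was 2.43 (2.12–2.81) in epithelial-like cells, against 0.833 (0.781–0.888) in mesenchymal-like cells, and its 7 dpa over Ctrl ratio was 1.33 (1.15–1.55) and 0.903 (0.853–0.955). The intervals cover counting error only, and the 3 dpa over Ctrl median of all genes was 0.42 (log2) in epithelial-like and 0.15 in mesenchymal-like cells.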

How the results depend on the processing

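No paired analysis was possible because each condition has 1 library. The 24 main log2 ratios of cav1, cav2 and cavin1b were recomputed under 6 alternatives, and of the 144 values 92 stayed within their counting interval, 51 moved and 1 reversed; of those that moved, 1 crossed 0 from a main value within counting error of 0 (cav1, 7 dpa over Ctrl, mesenchymal-like). Values below are log2 ratios in the order cav1, cav2, cavin1b where 3 are given. Epithelial over mesenchymal at 3 dpa (2.19, 1.62, 3.41) was 2.95, 2.31 and 5.88 with log normalization, 2.46, 1.80 and 4.21 as a mean over cells, 2.32, 1.84 and 3.54 with a 10% mitochondrial limit, 2.49, 1.91 and 3.81 at resolution 0.5, 2.24 (cav1) and 3.53 (cavin1b) with no gene held out, and 2.26 (cav1) and 3.58 (cavin1b) without the top doublet scores. At 7 dpa (2.41, 2.23, 4.57) it was 2.55 (cav1) and 5.56 (cavin1b) with log normalization, 2.59, 2.35 and 5.41 as a mean over cells, and 2.5 (cav1) and 4.82 (cavin1b) without the top doublet scores. aEPC-like over epithelial-like at 3 dpa (−1.34, −2.10, −1.53) was −0.19, −1.36 and −0.31 with log normalization, −1.15, −1.90 and −1.13 with the 10% limit, −1.13, −1.85 and −1.11 with no gene held out, −1.28 (cav1) as a mean over cells and −1.44 (cav1) at resolution 0.5. In epithelial-like cells, 3 dpa over Ctrl (0.25, −0.82, 1.5) was 0.034, −0.35 and 1.37 with log normalization, 0.48, −0.56 and 1.78 at resolution 0.5, 0.38 (cav1) and −0.63 (cav2) with the 10% limit and 1.39 (cavin1b) as a mean over cells, and 7 dpa over Ctrl of cav1 (−0.13) was −0.022 as a mean over cells. In mesenchymal-like cells, 3 dpa over Ctrl (0.67, −0.17, 4.34) was −0.31, −0.39 and 1.85 with log normalization, where cav1 reversed, and 0.36 (cav1) and 3.65 (cavin1b) as a mean over cells; 7 dpa over Ctrl (0.07, −0.28, 2.18) was −0.077 (cav1) and 1.28 (cavin1b) with log normalization and 1.60 (cavin1b) as a mean over cells. Of other ratios, log normalization reversed aEPC-like over mesenchymal-like for cav2 (0.95, against −0.47) and 7 dpa over 3 dpa in mesenchymal-like cells for cav1 (0.23, against −0.60); 1009 of the 2051 mesenchymal-like cells of 3 dpa left the class for an unnamed cluster in that setting. Co-detection of cav1 and cavin1b at 3 dpa was 56.3% (product 52.1%) at resolution 0.5, and at 900 UMIs it was 8.99%, 24.2% and 14.8% (products 9.04%, 20.8% and 13.6%) in the Ctrl, 3 dpa and 7 dpa libraries. Low counts limited what can be read for cavin1a, the mural-like and cardiomyocyte-like cells and cavin1b in mesenchymal-like cells of the Ctrl library (73 UMIs).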

Other observations

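At resolution 0.5 a cluster of 641 cells without a class name, led by the interferon-response genes rsad2, mxb and isg15, held 370 cells of 3 dpa, 340 of them epithelial-like at resolution 0.3. These 370 cells had cav1 at 5.99, cav2 at 0.650 and cavin1b at 3.99 UMIs per 10000, against 11.7, 1.29 and 9.25 in the 801 cells of 3 dpa called epithelial-like at resolution 0.5. The cluster's 259 cells of 7 dpa had cav1 at 2.83, cav2 at 0.481 and cavin1b at 1.48, and 170 of them had been mesenchymal-like and 89 epithelial-like, so its classes were mixed differently in the 3 dpa and 7 dpa libraries.

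A mesenchymal-like cluster at that resolution, led by cldn5a and thsd7aa, had cavin1b at 0.123 (0.090–0.165) in its 610 cells of 3 dpa. The immune-like level of 3 dpa was higher, at 0.601, or 0.408 without the cell with the most cavin1b UMIs. Immune-like cells are not a matched background. The median of the 12 epithelial markers at 3 dpa was 15.0% of the epithelial-like level in them, against 8.17% in mesenchymal-like cells.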
